A study of Rattus norvegicus with 10 samples.

Results

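The genes described here encode heat shock proteins and their J-domain co-chaperones in the left ventricle of the rat. They were chosen by symbol: every probe set annotated with a single gene whose symbol starts with Hspa, Hspb, Hspd, Hspe, Hsph, Hsp90, Dnaja, Dnajb or Dnajc, together with those of Hsf1, Hsf2 and Bag3. This gave 104 of 31042 probe sets, which stand for 67 of the 14217 genes that have a probe set of their own. Several probe sets were present for 26 of the 67 genes, and the probe set brightest on average over all arrays then represented the gene. Of the 67 genes, 61 were bright enough to be tested, and Dnajb7, Dnajb13, Dnajc6, Hspa1l, Hspa2 and Hspb9 were too dim. Hspa8, Hsp90aa1 and Hspa1b were read only by probe sets that also name another gene or a pseudogene, so no value is given for them. The rule by symbol also takes in Hspbp1 and Hspbap1, which are named after the heat shock proteins they bind.

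One group of 5 arrays came from hearts that had received 2 genes, MKK3bE, an always-active version of the p38-activating kinase MKK3, and wild-type p38α, and it is called p38 here. The other 5 came from hearts that had received LacZ, a bacterial enzyme used as the control, and this group carried neither kinase gene. All tissue was taken 3 days after gene transfer from rats of 250 to 300 g, and 9 of the 10 samples are labelled as male Sprague-Dawley. The sources used here give neither the promoter driving the transferred genes nor the share of heart cells that took them up, and nothing in them states that the arrays came from separate animals, so the p-values speak only for the spread among these samples, which may be technical.

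Heat shock proteins keep other proteins folded. HSP70 chaperones (the Hspa genes) bind unfolded segments in cycles of ATP hydrolysis that J-domain proteins (the Dnaj genes) start, HSP90 chaperones mature folded clients such as kinases, small heat shock proteins (the Hspb genes) hold unfolding proteins without using ATP, and the chaperonin of Hspd1 and Hspe1 encloses proteins in the mitochondrial matrix. Each compartment has its own set: the cytosolic set is switched on by the transcription factor Hsf1, the set of the endoplasmic reticulum (ER) by the unfolded protein response, and the mitochondrial set serves imported proteins. Hspb1, which is abundant in muscle and binds actin, is phosphorylated by a kinase that p38 activates.

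Expression was compared on a log2 scale, as log2(signal + 16) after quantile normalization, and every value below without another unit is on that scale. Changes are p38 minus LacZ, each with its standard error from limma, which was fitted to 5 arrays of either group, and p-values were adjusted by Benjamini-Hochberg over all 18625 tested probe sets. Values of different probe sets do not rank the abundance of their transcripts.

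Over all 61 tested members, 8 rose and 4 fell in p38, and 49 did not pass. The members that rose were 13.1% of those tested, where 11.6% of all 10596 tested genes rose, and the members that fell were 6.56%, where 6.23% of all genes fell. As a whole the family was thus called about as often as other genes, with a median change of 0.07 against 0.0004 over all genes. For 6 members every p38 array lay above every LacZ array, and for 3 every p38 array lay below. Over all genes 7.40% were separated upwards and 4.74% downwards. Leaving out LacZ 3 or p38 4 took the count of rises from 8 to 4, LacZ 1, LacZ 2 or p38 5 to 5, and p38 3 to 12, and leaving out LacZ 2, LacZ 3, LacZ 4 or p38 4 took the falls from 4 to 2. With the signals as deposited, without scaling between arrays, 5 rises (Hspb1, Dnajc1, Dnajc3, Dnajb6 and Dnaja1) and no falls were called, in data whose median change over all probe sets was 0.11 in place of -0.03.

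By compartment, the counts were as follows, beside 11.6% of all genes that rose, 6.23% that fell and 5300 of 10596 with a change above 0. Of the 12 tested members of the ER, 4 rose, none fell, and all 12 changes were above 0 at the probe set used. Their median was 0.27. With all probe sets of a gene averaged, 10 of 11 ER changes were above 0, and 10 of 12 were without LacZ 3, LacZ 5 or p38 1. The count of ER rises was 2 without LacZ 1, LacZ 2, LacZ 3, p38 4 or p38 5, and 6 without p38 1. Of the 9 tested mitochondrial members, 2 fell, none rose, 7 changes were below 0, and their median was -0.14. Among 37 tested members of the cytosol and nucleus, 4 rose and 2 fell around a median of 0.06, and no member among the 3 tested members of vesicles or membranes (Dnajc5, Dnajc13 and Dnajc22) passed at the probe set used. The difference between compartments was not tested.

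**Figure D1:**
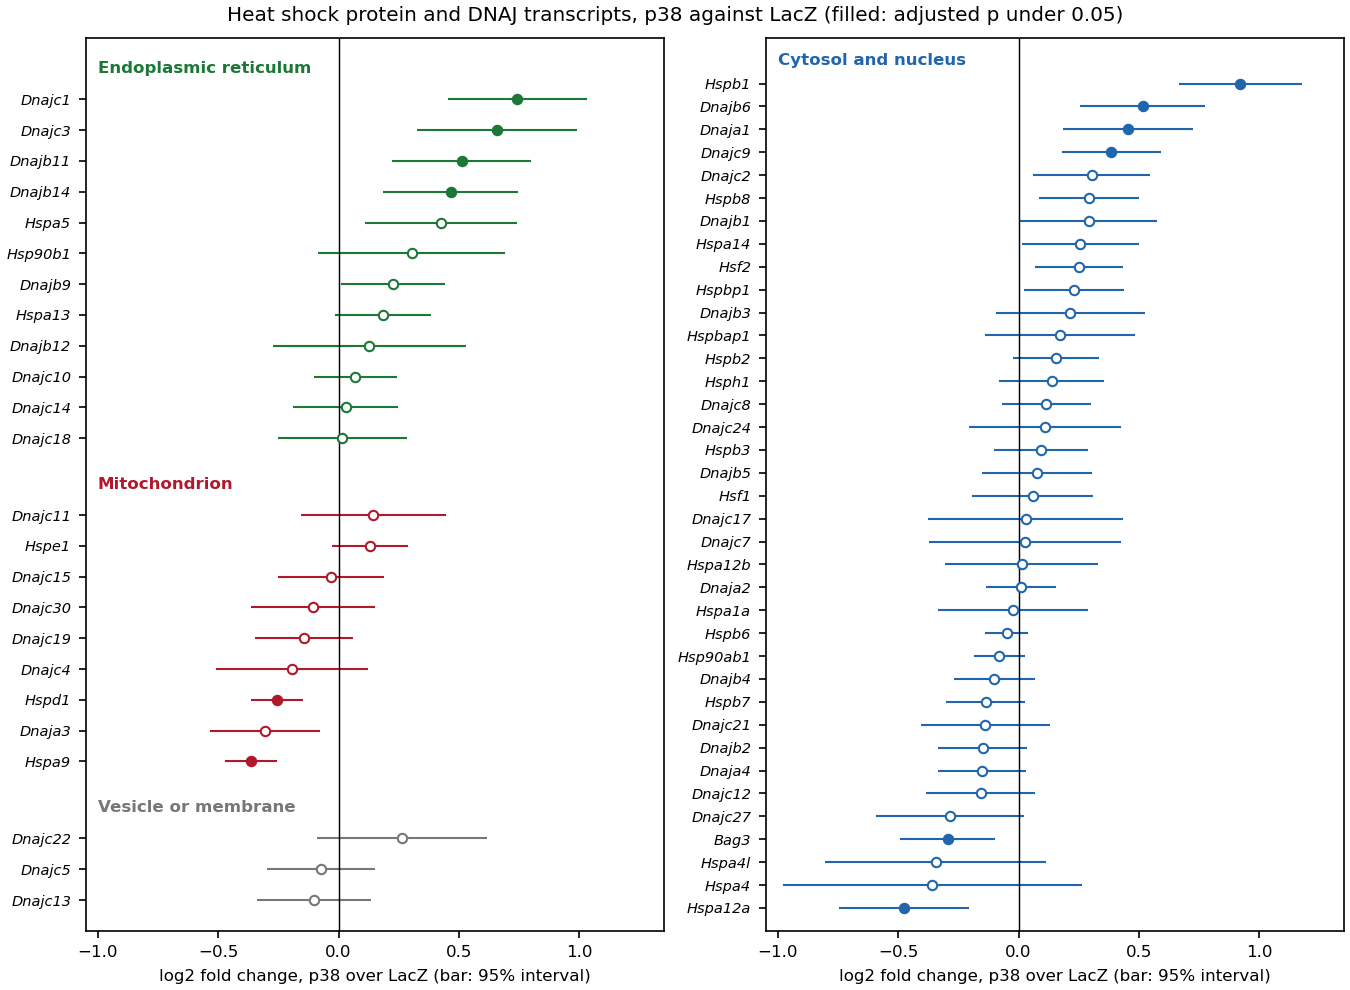
Change of each of the 61 tested members on the log2 scale (x axis, p38 over LacZ), with its 95% interval as a bar, grouped by the compartment of the protein. Filled points passed the threshold. All 12 ER members lie above 0, 7 of 9 mitochondrial members lie below 0, and the cytosolic and nuclear members spread to both sides, from Hspb1 at 0.92 to Hspa12a at -0.48.

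Promoters of a few members are printed because they hold elements through which these genes are classically induced. The sequences are from RefSeq on the GRCr8 assembly, given 5′ to 3′ along the gene, with positions counted from the annotated transcription start. Of the 67 members, 55 had a promoter of 300 bases, from 250 before the start to 50 after it. Capitals mark matches to the short heat shock element in Hspb1 (GAANNTTC or TTCNNGAA, with N for any base) and to the long one in the Hspd1 and Hspe1 pair, in which a further GAA or TTC follows in alternation after 2 bases. In Hspa5, Dnajc3 and Hsp90b1 they mark the ER stress element, CCAAT and CCACG with 9 bases between them, and in Dnajb11 its other form, ATTGG and CCACG with 1 base between them, each read on either strand. Hspb1 is shown from -200 to -1 (chr12:26432302-26432501, minus strand), Hspa5 from -100 to -1 (chr3:38452916-38453015, plus strand), and Dnajc3 from -160 to -61 (chr15:102432507-102432606, plus strand). Hsp90b1 is shown from -200 to -1 (chr7:23012294-23012493, minus strand) and Dnajb11 from -90 to 10 (chr11:91672791-91672890, minus strand). Hspe1 from -68 to -45 (plus strand) and Hspd1 from -245 to -222 (minus strand) are the same site, chr9:64084259-64084282, read on opposite strands.
Hspb1: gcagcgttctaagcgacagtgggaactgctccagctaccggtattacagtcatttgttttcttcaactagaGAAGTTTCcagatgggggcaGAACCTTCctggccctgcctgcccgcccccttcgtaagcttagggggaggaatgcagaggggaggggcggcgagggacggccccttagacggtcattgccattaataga
Hspa5: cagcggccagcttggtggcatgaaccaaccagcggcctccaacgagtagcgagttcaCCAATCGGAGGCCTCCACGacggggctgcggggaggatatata
Dnajc3: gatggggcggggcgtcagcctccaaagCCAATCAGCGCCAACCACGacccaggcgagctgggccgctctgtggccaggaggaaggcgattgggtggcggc
Hsp90b1: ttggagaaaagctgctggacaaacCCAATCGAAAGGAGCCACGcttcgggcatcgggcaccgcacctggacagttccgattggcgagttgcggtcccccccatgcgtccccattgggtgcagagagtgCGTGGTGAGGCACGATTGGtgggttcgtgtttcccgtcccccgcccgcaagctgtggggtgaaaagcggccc
Dnajb11: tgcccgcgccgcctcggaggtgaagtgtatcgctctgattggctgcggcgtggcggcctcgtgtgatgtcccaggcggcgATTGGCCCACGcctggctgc
Hspe1: cggTTCTAGAACCTTCCGGAAggc
Hspd1: gccTTCCGGAAGGTTCTAGAAccg

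Both strands were searched in each case. The long heat shock element was present in 4 of the 55 member promoters (Dnaja1, Hspd1, Hspe1 and Hsph1) and in 0.798% of all 33469 promoters, and the short one, which every long match contains, in 15 of 55 and in 15.9%. The ER stress element was present in the promoters of Dnajc3, Hsp90b1 (at 2 places) and Hspa5, and in 0.0657% of all promoters, and its other form in that of Dnajb11 and in 0.0508%. Among members called below, the short heat shock element was in Hspb1, Dnaja1 and Dnajb6, which rose, and in Bag3, Hspa9 and Hspd1, which fell. Of the members with an ER stress element of either form, Dnajc3 and Dnajb11 rose and Hspa5 and Hsp90b1 did not pass. Dnajc1 and Dnajb14 rose and had neither form. A match describes the letters in the window and does not show that a factor binds there.

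Among the small heat shock proteins, Hspb1 had the largest change of all members. On LacZ arrays 1 to 5 it lay at 12.24, 12.41, 12.33, 12.41 and 12.54, and on p38 arrays 1 to 5 at 12.92, 13.39, 13.06, 13.61 and 13.55. The groups did not overlap, and the lowest p38 array was p38 1. Hspb1 rose 1.89-fold (log2 change 0.92 ± 0.12, adjusted p = 0.00498). The call was kept with each array left out in turn, with adjusted p at most 0.0241.

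The other small heat shock proteins did not pass. Hspb8, which works with Bag3 in the disposal of damaged muscle proteins, lay at 11.99, 12.16, 12.02, 12.14 and 12.10 on the LacZ arrays and at 12.09, 12.37, 12.20, 12.58 and 12.64 on the p38 arrays. Only p38 1 lay within the LacZ range, and the change was 0.29 ± 0.10 (adjusted p = 0.0548). This change passed without p38 1, without p38 3 and with the fluidics status, described below, as a term in the fit. A dimmer probe set of Hspb8 changed by only 0.10 ± 0.18 (adjusted p = 0.724). Hspb6, a small heat shock protein abundant in cardiac muscle, lay between 13.26 and 13.32 in LacZ and between 13.16 and 13.30 in p38, a change of -0.05 ± 0.04 (adjusted p = 0.426). Hspb7, the cardiovascular member, lay between 12.83 and 13.06 in LacZ and between 12.56 and 12.99 in p38, a change of -0.14 ± 0.08 (adjusted p = 0.229). Hspb2 and Hspb3 changed by 0.15 ± 0.08 and 0.09 ± 0.09. Cryab, the αB-crystallin gene and a small heat shock protein outside the symbol rule, changed by -0.00 ± 0.04 (adjusted p = 0.955). Cryab lay between 13.67 and 13.75 on all arrays. Whether signals as bright as those of Cryab and Hspb6 still follow a change was not tested.

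Of the kinase route that leads from p38 to Hspb1, none of 5 tested genes passed. Mapk14, which encodes p38α, changed by -0.02 ± 0.07, and Map2k3, which encodes MKK3, by 0.11 ± 0.07. Mapkapk2, the kinase that phosphorylates Hspb1, changed by -0.23 ± 0.11 (adjusted p = 0.177). The sources used here do not say whether these probe sets read the transferred genes, so they do not check the labels.

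In the ER, 4 J-domain co-chaperones rose. Dnajc1, a membrane protein with its J domain in the lumen and a tail that binds ribosomes, lay at 7.98, 7.86, 7.84, 7.95 and 8.51 on the LacZ arrays and at 8.89, 8.62, 8.55, 8.87 and 8.93 on the p38 arrays. LacZ 5 stood well above the other LacZ arrays and just below the lowest p38 array. Dnajc1 rose by 0.74 ± 0.13 (adjusted p = 0.00858), while its other tested probe set, a dim one, changed by 0.03 (adjusted p = 0.921).

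Dnajc3, a lumenal co-chaperone that also restrains kinases which halt translation, lay at 7.97, 8.15, 8.04, 8.16 and 8.40 in LacZ and at 8.48, 8.86, 8.39, 9.18 and 9.11 in p38. The groups overlapped only where p38 3 fell just under LacZ 5. Dnajc3 rose by 0.66 ± 0.15 (adjusted p = 0.0170). The calls of Dnajc1 and Dnajc3 were kept with each array left out in turn, with adjusted p at most 0.0304 and 0.0481.

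Dnajb11, a soluble lumenal co-chaperone that brings unfolded proteins to Hspa5, lay at 9.12, 9.15, 9.06, 9.22 and 9.10 in LacZ and at 9.29, 9.75, 9.30, 9.998 and 9.88 in p38. All p38 arrays were above all LacZ arrays, with p38 1 and p38 3 close to them. It rose by 0.51 ± 0.13 (adjusted p = 0.0250), but leaving out any of LacZ 1, 2 and 3 or p38 2, 4 and 5 ended the call, with adjusted p between 0.0516 and 0.0632.

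Dnajb14, a J protein of the ER membrane that takes part in the degradation of misfolded proteins, lay at 5.84, 6.10, 6.02, 6.25 and 5.93 in LacZ and at 6.49, 6.31, 6.36, 6.68 and 6.63 in p38. The groups did not overlap, although the values were near the limit of 5.80 below which probe sets were not tested. Dnajb14 rose by 0.46 ± 0.13 (adjusted p = 0.0315), and leaving out any of LacZ 1, 2, 3 and 5 or p38 4 and 5 ended the call, with adjusted p between 0.0555 and 0.0916. Its 2 other probe sets were too dim to be tested.

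The 2 main chaperones of the ER did not pass, and their p38 arrays were spread widely. Hspa5, the HSP70 chaperone of the lumen known as BiP, lay at 11.98, 12.04, 11.79, 11.98 and 11.95 in LacZ and at 11.90, 12.50, 12.02, 12.66 and 12.79 in p38. p38 2, p38 4 and p38 5 were above every LacZ array, and p38 1 and p38 3 were within the LacZ range. The change was 0.43 ± 0.15 (adjusted p = 0.0634), and it passed without p38 1, without p38 3 and with the fluidics status as a term. Hsp90b1, the HSP90 chaperone of the lumen, lay at 11.19, 11.27, 11.28, 11.19 and 11.35 in LacZ and at 10.90, 11.60, 11.24, 11.96 and 12.08 in p38. The same 3 p38 arrays were high, and p38 1 was the lowest of all 10. Its change was 0.30 ± 0.18 (adjusted p = 0.255), and it passed without p38 1.

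The 6 remaining ER members, Dnajb9, Hspa13, Dnajb12, Dnajc10, Dnajc14 and Dnajc18, did not pass, with changes from 0.02 (Dnajc18) to 0.23 (Dnajb9). Dnajb9, a lumenal co-chaperone that is a classical target of the unfolded protein response, changed by 0.23 ± 0.10 (adjusted p = 0.132). Dnajc10, a disulfide reductase with a J domain, changed by 0.07 ± 0.08. Dimmer probe sets of Dnajc10 and Dnajc14 changed by -0.03 ± 0.10 and -0.07 ± 0.09, that of Dnajb12 by 0.19 ± 0.16, and none passed.

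**Figure D2:**
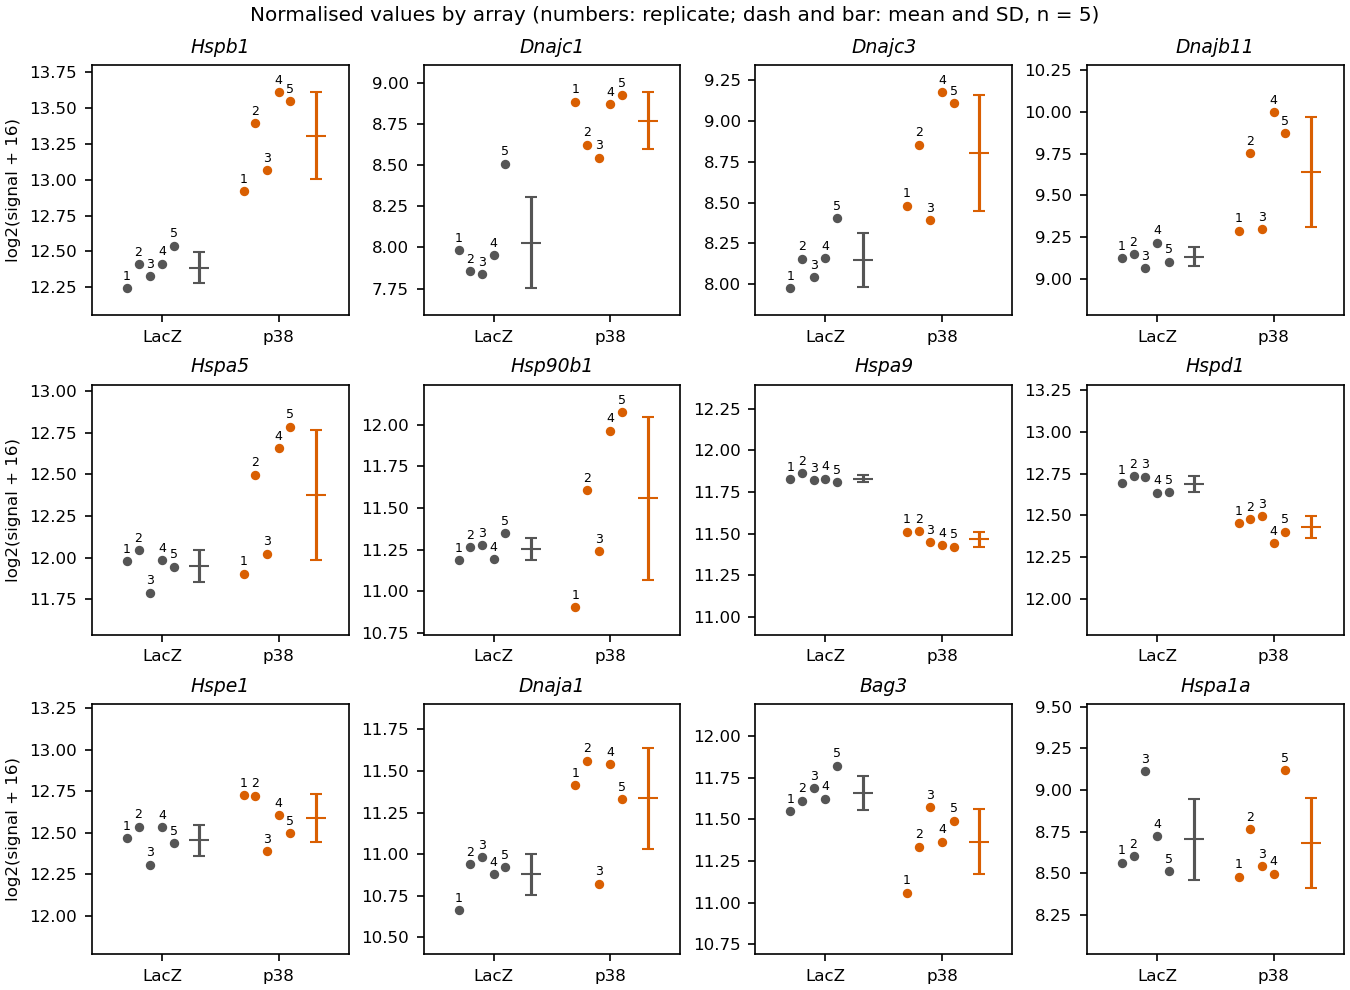
Normalised log2 value (y axis) of 12 members on each array, with LacZ in grey, p38 in orange, the replicate number above each point, and the mean and SD of 5 arrays beside it. Each panel has its own axis range. Hspb1, Hspa9 and Hspd1 show groups that do not overlap, while Hspa5 and Hsp90b1 are high on p38 2, p38 4 and p38 5 only.

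In the mitochondria, Hspa9 and Hspd1 fell and the partner of Hspd1 did not. Hspa9, the HSP70 chaperone of the matrix that pulls proteins through the inner membrane, lay at 11.82, 11.86, 11.82, 11.83 and 11.81 in LacZ and at 11.51, 11.51, 11.45, 11.43 and 11.42 in p38. The spread within either group was small beside the gap between them. Hspa9 fell by 0.36 ± 0.05 on the log2 scale (adjusted p = 0.00611). Another, dimmer probe set of Hspa9 fell by 0.61 ± 0.10 (adjusted p = 0.00732), while a much dimmer one changed by 0.34 ± 0.15 (adjusted p = 0.140).

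Hspd1, the large ring of the matrix chaperonin, lay at 12.70, 12.74, 12.73, 12.64 and 12.64 in LacZ and at 12.45, 12.48, 12.49, 12.33 and 12.40 in p38. All p38 arrays were below all LacZ arrays. Hspd1 fell by 0.26 ± 0.05 on the log2 scale (adjusted p = 0.0107). The calls of Hspa9 and Hspd1 were kept with each array left out, with adjusted p at most 0.0241 and 0.0345, but with the signals as deposited they were lost (adjusted p = 0.198 and 0.349).

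Hspe1, the lid of the same chaperonin, lay at 12.47, 12.54, 12.31, 12.53 and 12.44 in LacZ and at 12.72, 12.72, 12.39, 12.61 and 12.50 in p38. Its groups overlapped, p38 1 and p38 2 being the highest, and the change of 0.13 ± 0.07 did not pass (adjusted p = 0.226). Hspd1 and Hspe1 lie head to head with starts 290 bases apart, and their promoter windows share 211 bases, including the heat shock element printed above. The difference between the changes of the 2 genes was not tested.

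Dnaja3, the main J-domain partner of Hspa9, lay at 9.82, 9.91, 9.89, 9.76 and 9.70 in LacZ and at 9.88, 9.59, 9.37, 9.40 and 9.32 in p38. p38 1 was within the LacZ range and the other p38 arrays were below it, for a change of -0.31 ± 0.11 (adjusted p = 0.0661). The 5 other mitochondrial members, Dnajc4, Dnajc11, Dnajc15, Dnajc19 and Dnajc30, changed by between -0.19 and 0.14 and did not pass.

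In the cytosol and nucleus, 3 J-domain proteins rose beside Hspb1. Dnajb6, which prevents aggregation and is needed at the Z disc of muscle, lay at 8.75, 8.90, 8.94, 9.16 and 9.22 in LacZ and at 9.48, 9.38, 9.25, 9.64 and 9.80 in p38. The groups did not overlap, p38 3 being just above LacZ 5. Dnajb6 rose by 0.52 ± 0.12 (adjusted p = 0.0168), a call that was kept with each array left out (adjusted p at most 0.0464). Dnajb6 has pseudogenes that share other probe sets with it, and reads of such copies cannot be told apart where the sequence is shared.

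Dnajc9, a nuclear co-chaperone of histones, lay at 8.96, 8.92, 8.86, 8.85 and 9.17 in LacZ and at 9.26, 9.39, 9.20, 9.57 and 9.28 in p38, again without overlap. It rose by 0.39 ± 0.10 (adjusted p = 0.0205), and the call was lost without LacZ 3 or p38 4 (adjusted p between 0.0542 and 0.0556).

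Dnaja1, a general co-chaperone of cytosolic HSP70, lay at 10.66, 10.94, 10.98, 10.88 and 10.92 in LacZ and at 11.42, 11.56, 10.82, 11.54 and 11.33 in p38. p38 3 was within the LacZ range and the other p38 arrays were above it. Dnaja1 rose by 0.46 ± 0.12 (adjusted p = 0.0288), while its other probe set changed by 0.28 ± 0.09 and did not pass (adjusted p = 0.0539). Leaving out any of LacZ 1 to 4 or p38 2, 4 and 5 ended the call, with adjusted p between 0.0525 and 0.0768.

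Members that fell in the cytosol were Hspa12a and Bag3. Hspa12a, a distant relative of the HSP70 chaperones, lay at 7.21, 7.30, 7.60, 7.44 and 7.15 in LacZ and at 6.59, 6.91, 7.13, 6.78 and 6.92 in p38. The groups did not overlap, with p38 3 just under LacZ 5. Hspa12a fell by 0.48 ± 0.13 on the log2 scale (adjusted p = 0.0256), and leaving out any of LacZ 2, 3 and 4 or p38 4 ended the call (adjusted p between 0.0508 and 0.0672).

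Bag3, the nucleotide exchange factor that links HSP70 to Hspb8 and to autophagy at the Z disc, lay at 11.55, 11.61, 11.69, 11.62 and 11.82 in LacZ and at 11.06, 11.34, 11.57, 11.37 and 11.49 in p38. The groups overlapped through p38 3. Bag3 fell by 0.29 ± 0.09 on the log2 scale (adjusted p = 0.0455), and this call was the least stable of the 12: it was lost in 19 of 27 alternatives, among them the omission of any single array other than p38 3.

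Hsf1, Hspa1a, Dnajb1, Hsph1 and Hsp90ab1 did not pass. Hsf1, the main transcription factor of the heat shock response, lay at 7.95, 8.28, 8.25, 8.39 and 7.98 in LacZ and at 8.51, 8.15, 8.26, 8.17 and 8.05 in p38, a change of 0.06 ± 0.12 (adjusted p = 0.761). Hspa1a, the HSP70 gene most strongly induced by heat, lay at 8.56, 8.60, 9.11, 8.72 and 8.51 in LacZ and at 8.48, 8.76, 8.54, 8.50 and 9.12 in p38. One array in each group was high (LacZ 3 and p38 5), and the change was -0.02 ± 0.14 (adjusted p = 0.933). Hspa1a and Hspa1b are near-identical copies, so this value may hold signal of both.

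Dnajb1, the J protein that works with inducible HSP70, lay at 8.83, 9.20, 8.92, 9.04 and 9.21 in LacZ and at 9.03, 9.61, 9.03, 9.44 and 9.53 in p38. p38 2, p38 4 and p38 5 were above every LacZ array and the other p38 arrays were within the LacZ range, for a change of 0.29 ± 0.13 (adjusted p = 0.143). A dimmer probe set of Dnajb1 changed by 0.08 ± 0.17 (adjusted p = 0.785). Hsph1, an exchange factor of HSP70, lay at 9.76, 10.12, 9.99, 9.73 and 9.99 in LacZ and at 10.11, 10.16, 9.78, 10.07 and 10.16 in p38, with overlap, and changed by 0.14 ± 0.10 (adjusted p = 0.364). A dimmer probe set of Hsph1 changed by -0.05 ± 0.14 (adjusted p = 0.821). Hsp90ab1, the constitutive cytosolic HSP90, lay between 12.85 and 12.95 in LacZ and between 12.72 and 12.91 in p38, and changed by -0.08 ± 0.05 (adjusted p = 0.265). Of the 4 members with the long heat shock element, Dnaja1 rose, Hspd1 fell, and Hspe1 and Hsph1 did not pass.

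Hsf2, a transcription factor related to Hsf1, lay at 9.10, 9.11, 9.11, 9.17 and 9.38 in LacZ and at 9.48, 9.42, 9.31, 9.56 and 9.36 in p38 at its brightest probe set. LacZ 5 was within the p38 range, and the change was 0.25 ± 0.09 (adjusted p = 0.0598). A dimmer probe set of Hsf2 rose by 0.64 ± 0.16 (adjusted p = 0.0223) and another changed by 0.02 ± 0.12. Dnaja4 and Dnajc5 likewise had a dimmer probe set that fell, by 0.79 ± 0.25 (adjusted p = 0.0469) and by 0.31 ± 0.10 (adjusted p = 0.0460), while their brightest changed by -0.15 ± 0.08 and -0.07 ± 0.10 and did not pass. The 37 members that did not pass and are not listed by the rule for named genes ranged from -0.36 (Hspa4, with p38 3 at 7.97 and the other p38 arrays between 9.61 and 9.79) to 0.30 (Dnajc2). That range is for the brightest probe sets. Dnajb5 changed by 0.08 ± 0.11 at its brightest probe set and by -0.36 ± 0.15 (adjusted p = 0.110) at a dimmer one. Hspa12b changed by 0.01 ± 0.15 at its brightest and by -0.32 ± 0.17 and -0.34 ± 0.17 at dimmer ones. Another dim probe set of Dnajc5 changed by 0.23 ± 0.14, and none of these passed. The median 95% interval of a member reached 0.24 to either side.

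**Figure D3:**
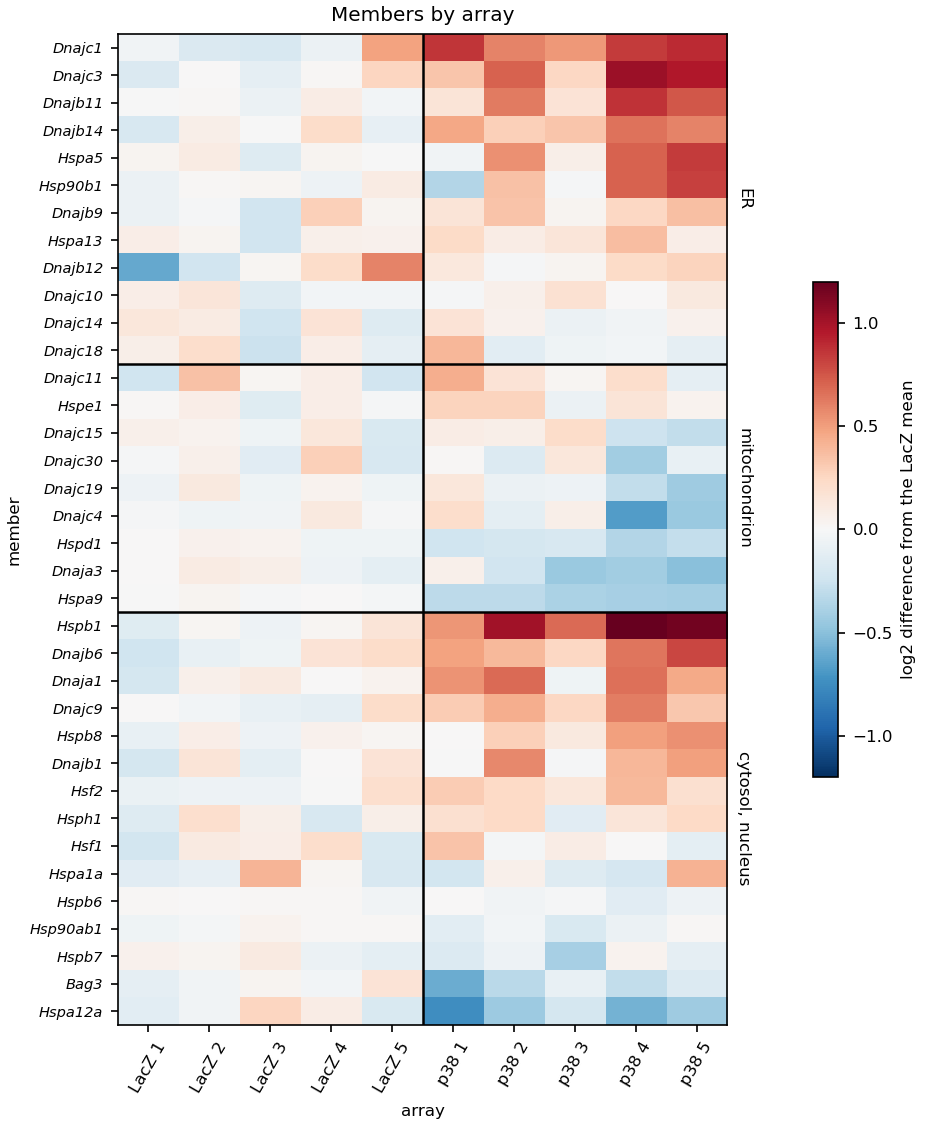
Difference of each array (columns) from the LacZ mean of the same member (rows) on the log2 scale, for all ER and mitochondrial members and the named cytosolic and nuclear ones. Within p38, the rises of the ER members Dnajc3, Dnajb11, Hspa5 and Hsp90b1 are largest on p38 4 and p38 5, and Hspa9 and Hspd1 are below their LacZ means on all 5 p38 arrays.

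The p38 arrays were not alike in the ER and mitochondrial members. The median difference of the 12 ER members from their LacZ means was 0.16, 0.31, 0.11, 0.51 and 0.48 on p38 1 to 5, against -0.16 to 0.07 on the LacZ arrays. The median of the 9 mitochondrial members was 0.09, -0.12, -0.06, -0.36 and -0.29 on p38 1 to 5, against -0.05 to 0.08 in LacZ. On these 5 arrays 6, 8, 5, 7 and 7 of the 12 ER members lay above every LacZ array, where 26.6% to 33.5% of all genes did. Of the 9 mitochondrial members, 2, 5, 4, 7 and 6 lay below every LacZ array, where 15.9% to 36% of all genes did, and 4, 1, 1, 1 and 0 lay above. The median of the 37 cytosolic and nuclear members was 0.16, 0.06, -0.01, 0.05 and -0.05 on p38 1 to 5, against -0.04 to 0.06 in LacZ. On these arrays 17, 14, 9, 12 and 12 of the cytosolic and nuclear members lay above every LacZ array, and 6, 3, 7, 11 and 11 below. On p38 1 the ER median was thus close to the cytosolic one.

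Mean levels of macrophage markers and of mitosis genes were also highest on p38 4 and p38 5. The mean level of 7 macrophage markers, 5 of which rose, was 8.68 to 9.25 in LacZ and 9.01, 9.64, 9.48, 10.14 and 10.12 on p38 1 to 5. The mean of 7 mitosis genes, 6 of which rose, was 6.04 to 7.04 in LacZ, with LacZ 5 highest, and 6.94, 7.76, 7.18, 8.26 and 8.31 on p38 1 to 5. Of the macrophage markers that did not pass, Csf1r changed by 0.44 ± 0.21 (adjusted p = 0.155) and Cd163 by -0.23 ± 0.12 (adjusted p = 0.207). Cd163 thus went against the list mean, with its lowest p38 values, 6.835 and 6.822, on p38 4 and p38 5. The part of macrophage markers and mitosis genes in the changes of the ER and mitochondrial members was not tested. Of 6 cardiomyocyte markers 1 fell (Ryr2), and their mean lay between 13.53 and 13.62 on all 10 arrays. Ryr2 was the dimmest of them, at 12.96 on average, and the others averaged 13.66 to 13.82. Whether signals that bright still follow a change was not tested, so the flat mean does not show an unchanged share of cardiomyocytes. Of 5 endothelial markers 2 fell, of 4 smooth muscle markers 2 rose and 1 fell, of 3 red cell markers 2 fell, and none of 6 fibroblast and 2 skeletal muscle markers passed. All these counts stand beside 11.6% of all genes that rose and 6.23% that fell. The tissue was bulk ventricle, so fewer cells of a type and less RNA per cell cannot be told apart.

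The array files also record the state of the fluidics run, Completed for LacZ 1 to 4, p38 4 and p38 5, and Started for LacZ 5 and p38 1 to 3. p38 4 and p38 5, on which the ER members were highest, were thus the 2 Completed arrays of their group. Within the 6 Completed arrays, 15 of the 61 members rose, where 20.8% of all genes rose, and 11 fell, where 20.5% of all genes fell. Hspb1 changed by 1.23 (adjusted p = 4.09e-07), Dnajc3 by 1.06 (adjusted p = 4.56e-05) and Dnajc1 by 0.99 (adjusted p = 6.9e-05). Hspa5 changed by 0.77 (adjusted p = 3.21e-05) and Hsp90b1 by 0.79 (adjusted p = 1.34e-05), and both therefore passed there.

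Within the 4 Started arrays, with a single LacZ array, no member passed, and of all genes 0.00944% rose and 0.00944% fell, so this count says nothing about the members. Hspb1 changed there by 0.59 (adjusted p = 0.771), Dnajb11 by 0.34, Dnajc1 by 0.18, Dnajc3 by 0.17, Hspa5 by 0.20 and Hsp90b1 by -0.10. Hspa9 changed by -0.41 within Completed and -0.32 within Started arrays, and Hspd1 by -0.33 and -0.16. The mitochondrial members as a set did not keep their direction. Of 9 changes, 8 were below 0 within Completed arrays (median -0.33) and 3 within Started arrays (median 0.06). With the status as a term in the fit, Hspb1 changed by 1.00, Hspa9 by -0.37 and Hspd1 by -0.27, and all 3 passed. In that fit Hspa5 (0.56, adjusted p = 0.0132) and Hspb8 (0.38, adjusted p = 0.0127) passed too, and Bag3 did not (adjusted p = 0.0541). Within the 4 fluidics modules, 2 of which hold 1 array per group, the change ran from 0.65 to 1.22 for Hspb1, from 0.04 to 0.71 for Hspa5 and from -0.40 to -0.30 for Hspa9.

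Other genes of the same folding systems were compared from lists of textbook members. Of 23 tested ER folding and unfolded protein response genes, 4 rose and 1 fell around a median of 0.18, where 11.6% of all genes rose and 6.23% fell. The genes that rose were Creld2 (0.87 ± 0.22, adjusted p = 0.0223) and Sdf2l1 (0.76 ± 0.20, adjusted p = 0.0258), both ER lumen proteins induced when folding fails there, Atf4 (0.42 ± 0.11, adjusted p = 0.0268), a transcription factor of the stress response, and the disulfide isomerase P4hb (0.32 ± 0.10, adjusted p = 0.0475). Herpud1, a factor of ER-associated degradation that the same response induces, fell by 0.29 ± 0.09 (adjusted p = 0.0388), and no gene of the list was called lower when any single array other than p38 3 was left out. Ddit3 changed by 0.18 ± 0.15 (adjusted p = 0.423) and Xbp1 by 0.17 ± 0.10 (adjusted p = 0.240), 2 transcription factors of that response, and neither passed. Leaving out LacZ 2, LacZ 3, p38 2 or p38 4 took the count of rises from 4 to 0, and leaving out p38 5 took it to 1, LacZ 1 or LacZ 4 to 2, p38 3 to 8 and p38 1 to 11.

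Of 15 tested mitochondrial folding genes and proteases, 4 fell and 1 rose around a median of -0.16, beside the same shares over all genes. Those that fell were Trap1, the mitochondrial HSP90 (-0.32 ± 0.08, adjusted p = 0.0263), and the proteases Lonp1 (-0.33 ± 0.07, adjusted p = 0.0128), Afg3l2 (-0.35 ± 0.09, adjusted p = 0.0260) and Spg7 (-0.39 ± 0.12, adjusted p = 0.0371). Yme1l1, a protease of the inner membrane, rose by 0.40 ± 0.11 (adjusted p = 0.0263). Leaving out any of LacZ 1, 2 and 3 or p38 2, 4 and 5 took the count of falls from 4 to 1 and that of rises from 1 to 0. Leaving out LacZ 4 took the falls to 2, and the signals as deposited took both counts to 0.

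The cytosolic chaperonin TRiC, which folds actin and tubulin, and its partner prefoldin had 6 of 13 tested genes that rose and none that fell, around a median of 0.23. Over all genes 11.6% rose and 6.23% fell. The genes were Tcp1, Cct2, Cct3, Cct5, Pfdn1 and Pfdn4, with Pfdn4 rising by 0.48 ± 0.10 (adjusted p = 0.0117) and the other 5 by 0.23 to 0.33. Leaving out any of LacZ 1, 3 and 4 or p38 2, 4 and 5 took the count from 6 to 1, LacZ 2 took it to 2, and the signals as deposited to 1. Of 21 tested co-chaperones of HSP70 and HSP90, Bag2 (0.34 ± 0.08, adjusted p = 0.0159) and Sugt1 (0.37 ± 0.09, adjusted p = 0.0213) rose, while Fkbp4 (-0.38 ± 0.12, adjusted p = 0.0457) and Unc45b, which folds myosin in striated muscle (-0.34 ± 0.09, adjusted p = 0.0286), fell. These 2 rises and 2 falls stand beside 11.6% and 6.23% over all genes. Leaving out LacZ 3, p38 2 or p38 4 took the rises to 1, p38 1 to 4 and p38 3 to 5, while the falls were 0 without LacZ 1, 2 or 3 or p38 4 or 5, and 1 without LacZ 4, LacZ 5 or p38 2.

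**Figure D4:**
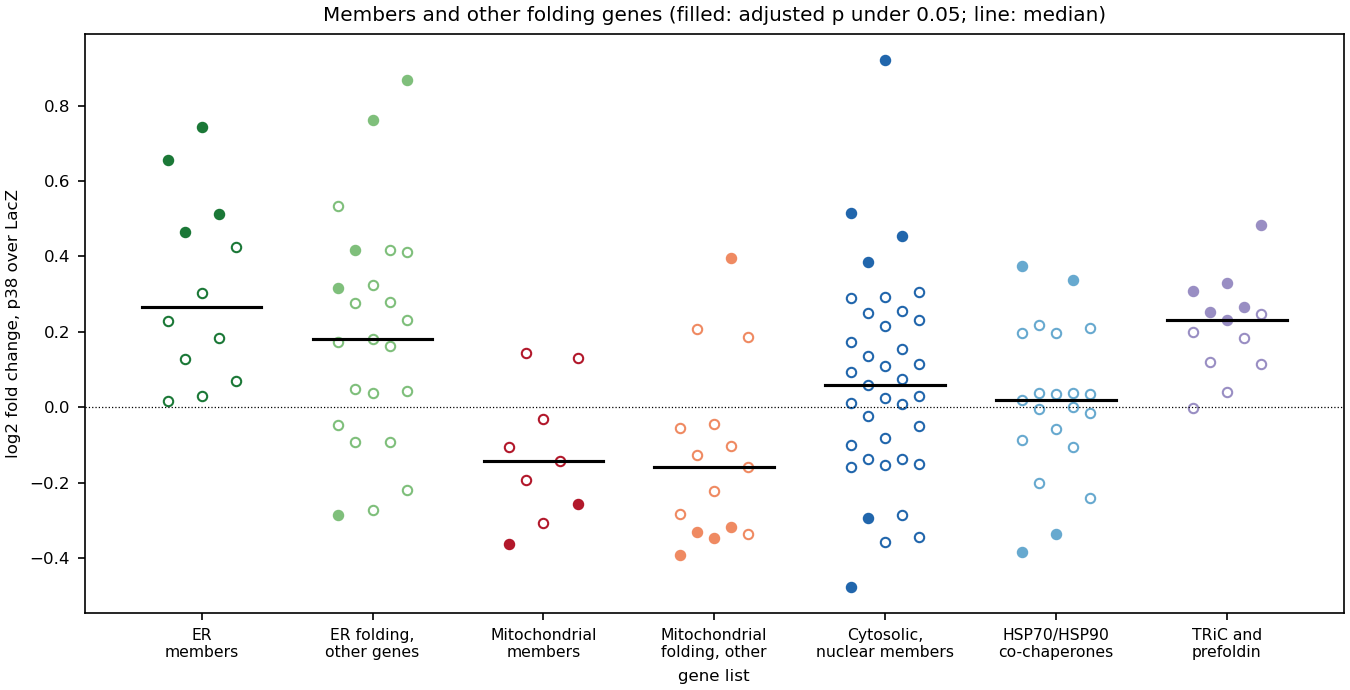
Change of each tested gene on the log2 scale (y axis, p38 over LacZ) in the 3 compartments of members and in the 4 lists of other folding genes. Filled points passed the threshold and lines are medians, which run from 0.27 for the ER members to -0.16 for the other mitochondrial genes.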

How the data were processed

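Left ventricular RNA of 10 samples was measured on 1 short-oligonucleotide array each, and groups and replicate numbers came from the titles. The deposited table holds 1 linear intensity per probe set and array, made by the authors with GCOS 1.2, per the submitters' processing notes. The arrays had not been brought to a common level, since their 2% trimmed means differed 1.479-fold. Other fields (fluidics status and module) came from the deposited experiment files, per the file headers. Values were log2(signal + 16), a scale that understates changes of dim probe sets, after quantile normalization between arrays. The 57 control probe sets and the dimmest 40% of the rest were left out (limit 5.80, a signal of 39.6). The test was limma 3.58.1 under R 4.3.3 (eBayes with an intensity trend, two-sided, threshold 0.05), tested on simulated data. The members, lists, compartments and tests were chosen with earlier results of these data known, among them those of Hspb1, Hspd1 and Bag3. Named genes were a fixed list of 20, of which 17 were tested, plus the 7 other members that passed, 24 in all. Entrez identifiers of all 67 members were found in RefSeq (GRCr8). Alternatives comprised other scalings, pseudocounts, filters and variance models, array weights, blocks, splits by fluidics status, averaging of probe sets and each array left out.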

Additional observations from a re-analysis of the deposited data

Results flagged for a closer look

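Of 48 groups of 5 arrays, 2 for each of 24 named members, 4 held an array far from the other 4 by Dixon's test at its 95% value, which chance gives in about 1 group in 20. LacZ 5 was the array in 3 of them. Its Dnajc1 value was 8.51 against 7.84 to 7.98 on the other LacZ arrays, its Hsf2 value 9.38 against 9.10 to 9.17, and its Hspb6 value 13.26 against 13.31 to 13.32. In p38, Hsph1 was lowest on p38 3, at 9.78 against 10.07 to 10.16. Without LacZ 5 and without p38 3 the call of Dnajc1 was kept.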

How the results depend on the processing

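Of the 12 members that passed, none changed sign in the alternatives run for it, which were 25 for Dnajb14, 26 for Hspa12a and 27 for the others. Leaving out 1 array gave 4 to 12 members higher and 2 to 4 lower. By compartment it gave 2 to 7 higher and 0 to 2 lower in the cytosol and nucleus, 2 to 6 higher in the ER and 2 to 3 lower in the mitochondria. The lowest count of higher members, 4, came without LacZ 3 or p38 4, and it was 5 without LacZ 1, LacZ 2 or p38 5, while 12 came without p38 3. The 2 lower members came without LacZ 2, LacZ 3, LacZ 4 or p38 4. Signals as deposited gave 5 members higher and 0 lower with a median of 0.23 (0.11 over all probe sets), cytosolic members 0 lower with a median of 0.23, 2 ER members higher and 0 mitochondrial members lower. Array weights gave 15 members higher, 8 of them cytosolic and 1 mitochondrial. Cytosolic lower counts were 1 with median centring, cyclic loess, the dimmest 60% left out, no intensity trend or the module as a block, and 0 without a filter, where 2 members were lower. Completed arrays gave 15 higher and 11 lower members, 8 and 5 of them cytosolic and 6 lower mitochondrial, and medians of 0.50 in the ER and -0.33 in the mitochondria. Started arrays gave 0 calls throughout and a mitochondrial median of 0.0633. At a threshold of 0.01, 2 members were higher (1 cytosolic, 1 ER) and 1 lower (0 cytosolic, 1 mitochondrial). Apart from the stricter threshold, which can only remove calls, the cause of these shifts was not tested. The labels state no pairing by replicate number. Same-numbered arrays correlated at -0.135 to 0.276, and only numbers 1 and 5 correlated best with their own. So few correlations cannot exclude shared handling of same-numbered arrays. A replicate block gave 11 members higher and 4 lower. All 12 ER changes stayed above 0 in most settings. The number above 0 was 10 within Completed arrays, within Started ones and without LacZ 3, LacZ 5 or p38 1. It was 11 with array weights, with the module as a block and without LacZ 1, and 10 of 11 with probe sets averaged. The number of arrays limits the precision of every value.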

Other observations

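On p38 3, Hspa4 and Dnajc7, which did not pass, lay far below the other arrays. Hspa4, an exchange factor of HSP70, was at 7.97 there and between 9.45 and 9.85 on the other 9 arrays. Dnajc7, a co-chaperone that binds HSP70 and HSP90, was at 8.97 there and between 9.66 and 10.17 elsewhere. Both members were chosen after their values were seen.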
